A study of Mus musculus with 7 samples.

Results

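The genes described are 7 members of the machinery that fills the blastocoel: the sodium pump beta subunits Atp1b1 and Atp1b3, the sodium-proton exchanger Slc9a3 with its scaffold Slc9a3r1, and the water channels Aqp3, Aqp8 and Aqp9. They were found by symbol among the 52636 genes of the deposited count table, and all 7 were matched. RNA came from inner cell masses (ICMs) of mouse embryos of genotype Sox2Cre;CRAFR26, labelled E3.5 Epiblast, in which 4-hydroxytamoxifen (tamoxifen below) switches on a cRAF construct and through it ERK. The mouse line was made from embryonic stem cell clones carrying the construct, and the libraries are labelled clone 4 or clone 8. All embryos were flushed at E2.5 and held for 24 h in KSOM medium with the FGF receptor inhibitor PD173074 at 250 nM, so this block is shared by both groups. The treated group received 250 nM tamoxifen for 4 h (4 libraries, labelled 4h), and the control group received ethanol for 4 h (3 libraries, labelled 0h). The outer layer, the trophectoderm, was removed by immunosurgery, and each library pooled 10 ICMs. Of 4 vehicle samples, 1 was discarded by the submitters at quality control, which left clone 8 with 1 vehicle library. The question was which transcripts differ after 4 h of tamoxifen. No group without the construct received tamoxifen, so effects of ERK and of tamoxifen itself cannot be told apart here.

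The blastocoel is the fluid cavity of the blastocyst, and the trophectoderm makes it. The sodium pump, an alpha and a beta subunit in the basolateral membrane, drives sodium out of the cell towards the cavity, while sodium enters from outside through carriers such as the exchanger NHE3, encoded by Slc9a3. Water follows through aquaporins, and tight junctions between the cells keep the fluid in. ICM cells lie inside this layer and are not known for pumping, so the labelled tissue is not the one in which these genes are usually described.

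The sequence just before the start of transcription is shown for 3 of the genes, because Aqp3 and Aqp9 were the members whose values separated the groups and Atp1b1 the one with a fold change nearest to 0. Each run gives the 250 bases before a RefSeq start (build GRCm38.p6), 5′ to 3′ on the gene's strand, with motif matches in capitals. RefSeq held all 7 genes, with 9 start sites in all. The windows printed hold no annotated exon: Aqp3 chr4:41098184-41098433 (minus strand), Aqp9 at its other listed start chr9:71162634-71162883 (minus strand), and Atp1b1 chr1:164458356-164458605 (minus strand).
Aqp3: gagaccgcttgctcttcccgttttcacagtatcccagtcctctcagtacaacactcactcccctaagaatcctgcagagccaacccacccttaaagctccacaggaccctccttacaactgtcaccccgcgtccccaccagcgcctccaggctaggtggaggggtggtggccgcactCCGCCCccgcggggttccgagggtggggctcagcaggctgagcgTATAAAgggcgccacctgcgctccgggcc
Aqp9: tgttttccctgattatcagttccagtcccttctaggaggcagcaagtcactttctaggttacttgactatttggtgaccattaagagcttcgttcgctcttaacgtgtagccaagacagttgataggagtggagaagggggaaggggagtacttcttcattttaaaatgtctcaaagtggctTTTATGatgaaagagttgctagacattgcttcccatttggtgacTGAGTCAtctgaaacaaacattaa
Atp1b1: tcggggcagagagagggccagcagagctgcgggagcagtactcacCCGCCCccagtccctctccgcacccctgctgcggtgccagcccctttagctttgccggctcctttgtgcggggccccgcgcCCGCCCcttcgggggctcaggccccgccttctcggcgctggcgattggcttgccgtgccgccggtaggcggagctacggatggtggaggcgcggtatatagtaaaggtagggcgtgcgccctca

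The 3 windows differ in make-up. The Aqp3 window has 64.0% GC and 14 CpG sites, with a TATA motif (TATAAA) 29 to 24 bases before the start and a GC box (GGGCGG, read on the other strand) 73 to 68 bases before it. The Aqp9 window has 41.6% GC and 3 CpG sites, a CDX motif (TTTATG) 68 to 63 bases before the start and an AP-1 motif (TGANTCA) 24 to 18 bases before it. This window lies within the annotated span of the gene (chr9:71110659-71168682). The Aqp9 window at the first listed start, not printed, overlaps annotated exons and has 40.4% GC and no motif match. The Atp1b1 window has 70.4% GC and 24 CpG sites, with GC boxes in 2 places and no other match. The median GC over all 32851 RefSeq windows of this length was 52.4%.

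In all, 8 motifs were searched on both strands. The GC box was present in 5 of the 9 windows of these genes and in 32.7% of all windows. TATAAA was found in 1 of the 9 (Aqp3) and in 12.4% of all, TTTATG in 1 (Aqp9) and in 10.8%, and TGANTCA in 1 (Aqp9) and in 6.75%. The TEAD motif GGAATG was found in 1 (Aqp8) and in 12.6% of all, and the ETS motif CCGGAA in 1 (Atp1b3) and in 12.0%. The GATA motif GATAAG and the TFAP2 motif GCCNNNGGC were in 0 of the 9, against 6.55% and 13.7% of all windows. A match is a run of letters and was not tested as a binding site.

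The libraries held 22981498 to 42294719 counts and 19287 to 22641 detected genes. Vehicle clone8_1 stood apart: the median log2 deviation of genes with transcripts under 1000 nt was -1.39 there, against -0.087 to 0.22 in the other 6. The typical transcripts of the 7 genes are 1469 to 2643 nt long, above that length. Genes with transcripts of 1000 nt or more had a median log2 deviation of 0.12 in vehicle clone8_1, against -0.044 to 0 in the other 6. All 10 trophectoderm markers examined were detected in libraries from which the trophectoderm was to be removed, with summed levels of 7991 to 10759 CPM (a gene's share of the library's counts, after TMM scaling) in vehicle and 6394 to 9166 in tamoxifen. Epiblast markers summed to 1938 to 2315 CPM in vehicle and 1910 to 2361 in tamoxifen, and primitive endoderm markers to 804 to 1105 and 842 to 979. Blood markers summed to at most 0.65 CPM, with Hbb-bs, Hbb-bt and Ptprc at 0, and markers of cumulus and oviduct to at most 3.86 CPM. Most of the primitive endoderm sum was Dab2, at 639 to 823 CPM in vehicle and 560 to 748 in tamoxifen. Gata6 was at 56.7 to 77.7 and 70.1 to 151 CPM, and Gata4 at 0.872 to 1.41 and 1.36 to 2.01. Sox7 and Foxa2 reached at most 0.431 and 0.0862 CPM. Epiblast markers were thus present in every library, as the label says, and so were markers of the trophectoderm and some of the primitive endoderm.

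After 4 h of tamoxifen, Aqp3 and Aqp9 were 28.9% and 29.6% lower than in vehicle, and in both genes every tamoxifen library lay below every vehicle library. Atp1b1, Atp1b3, Slc9a3r1 and Aqp8 had overlapping groups, and Slc9a3 was practically not detected. None of them passed the adjusted threshold of 0.05 in edgeR's quasi-likelihood test, adjusted over 16248 genes, and neither did any other gene (0% called; the smallest adjusted p was 0.794). At an unadjusted p under 0.05 there were 2 of the 6 genes tested, both lower, against 5.97% of all genes tested (3.28% lower and 2.69% higher). Groups without overlap were found in the same 2 genes, against 8.45% of all genes (4.74% lower and 3.71% higher). The 6 had a median log2 fold change of -0.39, with 5 lower and 1 higher, and all genes tested a median of 0.019, with 8408 higher and 7840 lower.

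**Figure D1:**
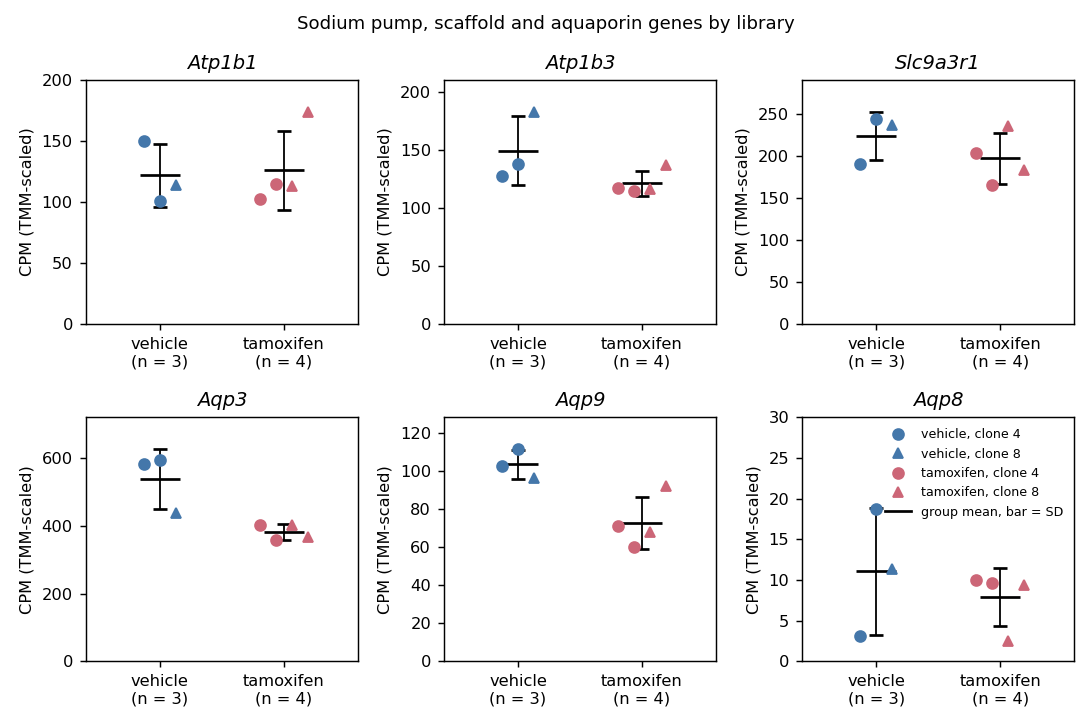
CPM of the 6 tested genes in each library (vertical axes in CPM, each panel with its own range), with bars at the group means. Vehicle is in blue and tamoxifen in red, with circles for clone 4 and triangles for clone 8. Slc9a3 is not drawn. Aqp3 lies at 437 to 595 CPM in vehicle and 358 to 403 in tamoxifen, and Aqp9 at 96.0 to 111 and 59.9 to 91.9, while the other tested genes overlap.

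Atp1b1 encodes the beta1 subunit, which brings the pump to the membrane and is needed for the mouse embryo to form a cavity (gene at chr1:164437109-164458355, minus strand, GRCm38). Its level was 150, 101 and 114 CPM in vehicle clone4_1, clone4_2 and clone8_1, and 102, 115, 113 and 174 CPM in tamoxifen clone4_1, clone4_2, clone8_1 and clone8_2. The highest value was a tamoxifen library, the lowest a vehicle library, and the groups overlapped. The means were 122 ± 25.5 (SD, n = 3) and 126 ± 32.4 CPM (SD, n = 4). On the log2 scale the fold change was 0.05 ± 0.22 (SE), and the adjusted p was 0.969 by edgeR. This standard error leaves room for a difference in either direction, and the sign turned to -0.14 without tamoxifen clone8_2. The gene shares 617 bp with Nme7 on the opposite strand, and the strand setting of the counting is not given in the sources used here.

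Atp1b3 encodes the beta3 subunit (chr9:96332655-96364442, minus strand). It was at 127, 137 and 183 CPM in the vehicle libraries, in the order above, and at 117, 114, 116 and 137 CPM in the tamoxifen libraries. The tamoxifen values were close together apart from clone8_2, which reached the level of vehicle clone4_2. With means of 149 ± 29.6 (SD, n = 3) and 121 ± 10.7 CPM (SD, n = 4), the log2 fold change was -0.30 ± 0.17 (adjusted p = 0.798 by edgeR), and a two-sided exact permutation test of log2 CPM over the 35 ways to assign the libraries gave p = 0.0857. The smallest p this test can give here is 0.0286. Vehicle clone8_1 carried much of the difference: without it the log2 fold change was -0.13, and without both clone8_1 libraries -0.11.

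The mix of the beta subunits was taken from levels per transcript length. Atp1b1 made up 47.1%, 36.1% and 32.0% of the 3 beta subunits (Atp1b1, Atp1b2 and Atp1b3) in the vehicle libraries and 39.6%, 42.7%, 41.8% and 49.3% in the tamoxifen libraries. The groups overlapped, with means of 38.4% ± 7.77 and 43.4% ± 4.14 (SD, n = 3 and 4; exact permutation p = 0.286). Atp1b3 held most of the rest, 60.5% ± 7.92 in vehicle and 54.9% ± 3.43 in tamoxifen (exact permutation p = 0.229, n = 3 and 4).

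Of 12 other pump subunit genes, 7 passed the filter on low counts, 6 of them with a fold change above 0 and 1 below, and none had an unadjusted p under 0.05 or groups without overlap. Their median log2 fold change was 0.40. Atp12a, a related pump that exchanges protons for potassium, had a log2 fold change of -0.62 ± 0.47. Among the small FXYD proteins that tune the pump, Fxyd4 had a log2 fold change of 0.40 ± 0.63 and Fxyd6 one of 0.94 ± 0.58. Fxyd4 turned to -0.13 without vehicle clone8_1. Fxyd6 stayed above 0 but moved with several libraries. It was 0.59 without vehicle clone8_1, 0.61 without vehicle clone4_1 or without tamoxifen clone8_1, and 1.99 without vehicle clone4_2. Fxyd4 stood at 43.6 and 21.4 CPM in vehicle clone 4 and at 2.97 CPM in vehicle clone8_1, the library low in short transcripts. The Fxyd4 transcript is 628 nt long, and the part of transcript length in this value was not tested. Fxyd7 was at 0 in every library.

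Slc9a3 (chr13:74121457-74169442, plus strand) had 1 count in vehicle clone4_2 and 0 in the other 6 libraries. It did not pass the filter and was not tested. A count of 0 allows up to 3 counts, or 0.0709 to 0.131 CPM at these depths, counting error only. The exchanger best known from kidney and gut epithelium was thus at or below the limit of detection in all 7 libraries.

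Its scaffold was abundant. Slc9a3r1 encodes NHERF1, a PDZ protein that ties NHE3 and other membrane proteins to ezrin (chr11:115163341-115181181, plus strand). Slc9a3r1 was at 191, 244 and 237 CPM in the vehicle libraries and at 204, 166, 237 and 183 CPM in the tamoxifen libraries. Tamoxifen clone8_1 matched the upper vehicle libraries, so the groups overlapped (224 ± 29.0 and 198 ± 30.4 CPM, SD, n = 3 and 4). The log2 fold change was -0.18 ± 0.18, with an adjusted p of 0.838 by edgeR.

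Among 12 other exchangers and scaffolds, 9 were tested, 6 above 0 and 3 below, with a median log2 fold change of 0.37. An unadjusted p under 0.05 was found for 1, Pdzk1, which was lower. Pdzk1, another PDZ scaffold of epithelial transporters, was at 20.6 to 23.02 CPM in vehicle and 13.0 to 15.8 in tamoxifen (log2 fold change -0.60 ± 0.20, unadjusted p = 0.0131 and adjusted p = 0.794 by edgeR). Its groups did not overlap, and neither did those of Msn, which encodes moesin of the ezrin family, at 234 to 248 and 121 to 208 CPM (log2 fold change -0.41 ± 0.20).

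The other ezrin-family genes had overlapping groups, with log2 fold changes of 0.21 ± 0.28 for Ezr and -0.25 ± 0.24 for Rdx. Slc9a8, an exchanger of the Golgi apparatus picked here after its values were seen, had groups without overlap in the higher direction, 32.8 to 52.0 CPM in vehicle and 53.8 to 67.9 in tamoxifen (log2 fold change 0.39 ± 0.20, unadjusted p = 0.0856 by edgeR). Slc9a4 was at 0 in every library.

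Aqp3 encodes an aquaglyceroporin that carries water and glycerol and lies in the basolateral membrane of the mouse trophectoderm (chr4:41092722-41098183, minus strand). Its level was 583, 595 and 437 CPM in vehicle clone4_1, clone4_2 and clone8_1, and 402, 358, 403 and 367 CPM in tamoxifen clone4_1, clone4_2, clone8_1 and clone8_2. Both clone 4 vehicle libraries were far above the rest, and vehicle clone8_1 was the nearest to the tamoxifen libraries without reaching them. The means were 538 ± 87.99 (SD, n = 3) and 383 ± 23.5 CPM (SD, n = 4). The log2 fold change was -0.49 ± 0.16, with an unadjusted p of 0.0118, rank 207 of 16248, and an adjusted p of 0.794 by edgeR. The exact permutation test gave p = 0.0286, the smallest it can give. In bulk samples such as these, fewer cells of a type and less RNA per cell cannot be told apart.

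Aqp9 encodes another aquaglyceroporin, which lies in the apical membrane of the trophectoderm (chr9:71110659-71168682, minus strand). It was at 102, 111 and 96.0 CPM in the vehicle libraries and at 70.9, 59.9, 68.1 and 91.9 CPM in the tamoxifen libraries. Tamoxifen clone8_2 stood above the other 3 and just below the lowest vehicle library. The means were 103 ± 7.78 (SD, n = 3) and 72.7 ± 13.6 CPM (SD, n = 4). The log2 fold change was -0.51 ± 0.18 (unadjusted p = 0.0177, rank 320, and adjusted p = 0.794 by edgeR), and the exact permutation test gave p = 0.0571. Aqp9 lies opposite Gm47268 and Gm32511 on the other strand over 5592 bp, which an unstranded count could not separate.

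Aqp8, a water channel described in the basolateral membrane of the trophectoderm (chr7:123462291-123468004, plus strand), rested on 70 to 600 counts a library. It was at 3.15, 18.7 and 11.3 CPM in the vehicle libraries and at 10.0, 9.61, 2.53 and 9.35 CPM in the tamoxifen libraries. A low library was present in each group, vehicle clone4_1 and tamoxifen clone8_1, and the vehicle values alone spanned those of tamoxifen but for that low one. The means were 11.05 ± 7.77 (SD, n = 3) and 7.88 ± 3.58 CPM (SD, n = 4). The log2 fold change was -0.48 ± 0.59 and the adjusted p 0.865 by edgeR. The point estimate is as low as that of Aqp3, but its standard error is larger than the estimate, and it was 0.12 without vehicle clone4_2.

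Of 9 other aquaporins, 2 passed the filter. Aqp7 was at 1.12 to 8.11 CPM in vehicle and 1.08 to 2.91 in tamoxifen (log2 fold change -0.97 ± 0.65), and Aqp11 at 1.66 to 4.09 and 2.60 to 7.09 (0.65 ± 0.48). Both pairs of groups overlapped. Aqp1, Aqp2, Aqp4, Aqp6 and Aqp12 were at 0 in every library.

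Aqp3 supplied most aquaporin RNA in every library. Per transcript length it held 82.6% to 88.5% of all aquaporin RNA, and Aqp9 held 9.72% to 13.8%. The ratio of Aqp3 to Aqp9 was 7.77 ± 0.872 in vehicle and 8.07 ± 1.40 in tamoxifen (exact permutation p = 0.886, n = 3 and 4). The ratio overlapped between the groups. Across the 7 libraries their log2 CPM had a Pearson r of 0.773, a description over libraries that share the difference between groups.

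Trophectoderm markers were also lower. All 10 of 10 had a fold change below 0, with a median log2 of -0.30, and 3 had an unadjusted p under 0.05 (Gata3, Krt7 and Elf3). Of the defining transcription factors, Gata3 was at 828 to 986 CPM in vehicle and 607 to 700 in tamoxifen, a log2 fold change of -0.47 ± 0.14 with groups that did not overlap. Cdx2 was at 485 to 543 and 324 to 490 CPM (-0.28 ± 0.17), and Eomes at 23.7 to 33.7 and 19.5 to 28.3 CPM (-0.35 ± 0.21), both with overlap. Elf3 and Tfap2c also had groups without overlap, in the lower direction.

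Markers of the other lineages were mixed, with more of them above 0 than below. Of 10 epiblast markers, 7 had a fold change above 0 and 3 below, with a median log2 of 0.41. Those below were Nanog (-0.16), Pou5f1 (-0.13) and Tfcp2l1 (-0.11). Of 8 primitive endoderm markers tested, 6 were above 0 and 2 below, with a median of 0.50. Those below were Pdgfra (-0.50) and Dab2 (-0.21). The summed CPM of each list overlapped between the groups. An unadjusted p under 0.05 was found for Klf4 of the epiblast list (log2 fold change 0.49 ± 0.19) and for Sox17 and Lama1 of the primitive endoderm list (2.58 ± 0.75 and 1.35 ± 0.36), named after their values were seen. Sox17 and Lama1 had groups without overlap, and none of the markers passed the adjusted threshold. The part of this lineage mix in the aquaporin values was not tested. The comparison with trophectoderm markers below uses RNA of the same pools and is no test of cell numbers.

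Measured against these markers within each library, the groups overlapped for both Aqp3 and Aqp9. In a comparison added after the values were seen, the mean log2 CPM of the 10 markers was subtracted from that of each gene. Aqp3 then stood at 1.01 ± 0.19 in vehicle and 0.94 ± 0.17 in tamoxifen, a difference of -0.07 (exact permutation p = 0.571, n = 3 and 4). Aqp9 stood at -1.36 ± 0.123 and -1.47 ± 0.369, a difference of -0.12 (exact permutation p = 0.629, n = 3 and 4). Against single markers in CPM, the log2 difference of Aqp3 was -0.18 with Cdx2, -0.01 with Gata3 and -0.13 with Eomes (exact permutation p = 0.371, 0.943 and 0.543). That of Aqp9 was -0.22, -0.054 and -0.17 (exact permutation p = 0.286, 0.543 and 0.514). All 6 differences were below 0, but they reuse the same genes, markers and libraries and are not 6 separate observations.

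The same subtraction gave differences of 0.44 for Atp1b1 and 0.12 for Atp1b3 (exact permutation p = 0.257 and 0.629, n = 3 and 4). It gave 0.22 for Slc9a3r1 and 0.071 for Aqp8 (exact permutation p = 0.0571 and 0.886). Relative to the mean of all 10 trophectoderm markers, Krt7 included, 4 of the 6 genes had a difference above 0 and 2 below. None reached the smallest p the test allows. Whether the signs of small differences, such as that of Aqp8, depend on Krt7 was not tested.

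**Figure D2:**
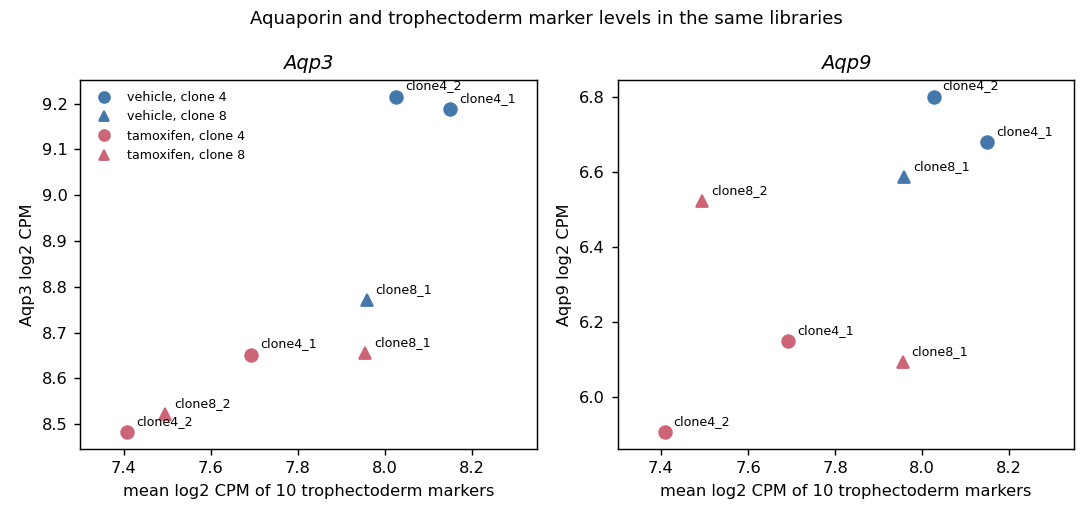
Log2 CPM of Aqp3 (left) and Aqp9 (right) against the mean log2 CPM of 10 trophectoderm markers in the same library, vehicle in blue and tamoxifen in red, circles for clone 4 and triangles for clone 8. The vehicle libraries lie at marker means of 7.96 to 8.15 and the tamoxifen libraries at 7.41 to 7.96, with tamoxifen clone8_1 beside vehicle clone8_1.

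Tamoxifen clone8_1 had a trophectoderm mean of 7.96, equal to 2 decimals to that of vehicle clone8_1. Single markers differed in both directions behind this equal mean. In tamoxifen clone8_1 against vehicle clone8_1, Gata3 was at 682 against 972 CPM and Elf3 at 608 against 843. Krt18 was at 3957 against 3060 CPM and Tfap2a at 35.9 against 24.0. Between these 2 libraries Aqp3 was at 403 against 437 CPM and Aqp9 at 68.1 against 96.0 CPM. Without either of them, the log2 fold change was -0.65 ± 0.11 for Aqp3 and -0.53 ± 0.19 for Aqp9.

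The clones are the only batch that the labels name. Within clone 4, with 2 libraries a condition, the log2 fold change was -0.64 ± 0.13 for Aqp3 (unadjusted p = 0.00204) and -0.72 ± 0.17 for Aqp9 (unadjusted p = 0.00398), each with an adjusted p of 0.550 by edgeR. In that comparison 7.87% of genes had an unadjusted p under 0.05 and 0% an adjusted one. Within clone 8, where 1 vehicle library allows no test, the log2 CPM difference was -0.18 for Aqp3 and -0.28 for Aqp9. Both genes were lower in both clones, with the smaller difference in clone 8. The clone 8 values rest on vehicle clone8_1, the library low in short transcripts. Before TMM scaling, its genes of 1000 nt or more had a median log2 deviation of 0.12. The same median was -0.044 in tamoxifen clone8_1 and 0 in tamoxifen clone8_2. The part of this shift in the clone 8 differences was not tested.

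The difference between clones was tested as an interaction, which rests on the single clone 8 vehicle library and takes its spread to be that of the other groups. Of the 514 genes called, 510 went one way. It was 0.45 ± 0.24 for Aqp3 and 0.45 ± 0.34 for Aqp9 on the log2 scale, with adjusted p of 0.421 and 0.586 by edgeR. Atp1b1 was -0.22 ± 0.22 in clone 4 and 0.30 in clone 8, and its interaction had an adjusted p of 0.598 by edgeR. Atp1b3 and Slc9a3r1 were below 0 in both clones, at -0.20 and -0.53 and at -0.24 and -0.19. Of the 6 genes 0 had an interaction that passed, against 3.16% of all genes tested, and 0 had one with an unadjusted p under 0.05, against 14.8%.

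Leaving out each library in turn, Aqp3 stayed between -0.63 and -0.42 on the log2 scale with an unadjusted p of 0.000395 to 0.0484, under 0.05 in 7 of 7 fits by edgeR. Aqp9 stayed between -0.64 and -0.44 with an unadjusted p of 0.00504 to 0.0606, under 0.05 in 6 of 7, the exception being the fit without vehicle clone4_2. With TMM factors taken from genes of 1000 nt or more, the log2 fold change was -0.47 for Aqp3 and -0.48 for Aqp9. Over all 18 other settings the adjusted p was 0.386 to 0.961 for Aqp3 and 0.486 to 0.961 for Aqp9.

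**Figure D3:**
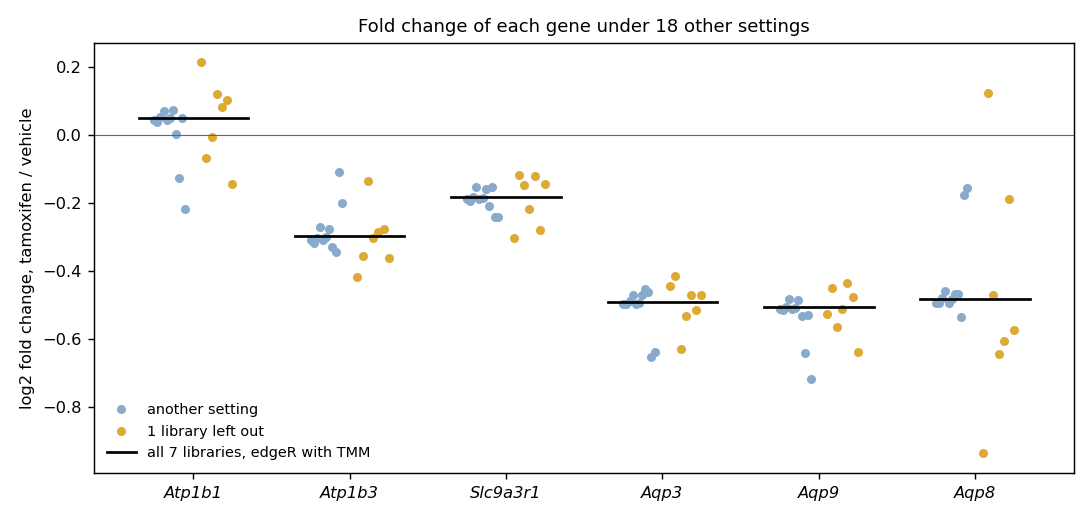
Log2 fold change (tamoxifen over vehicle) of the 6 tested genes with all 7 libraries (black bar), under 11 other settings of the test (blue) and with 1 library left out (yellow, 7 fits). Aqp3 and Aqp9 stay below 0 throughout, as do Atp1b3 and Slc9a3r1, while Atp1b1 and Aqp8 cross 0.

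Per transcript length, the genes spanned a wide range of levels. Over the 7 libraries Aqp3 was the highest at 414.5 ± 94.9 TPM (a share of all transcripts, computed from the deposited counts and transcript lengths), followed by Slc9a3r1 at 178 ± 36.1, Atp1b3 at 110 ± 32.3, Atp1b1 at 78.2 ± 16.6, Aqp9 at 53.2 ± 14.2 and Aqp8 at 10.5 ± 6.32 (SD, n = 7). Slc9a3 was last, at 0.00278 TPM. TPM is scaled within a library and so moves with the low short transcripts of vehicle clone8_1, and conditions were compared in CPM. The ranges of Slc9a3r1 and Atp1b3, of Atp1b3 and Atp1b1, and of Atp1b1 and Aqp9 overlapped, so these neighbours were not separated by their spread, although within a library the order held in 7, 7 and 6 of 7 cases. The order was the same with the longest transcript in place of the typical one. Aqp3 did not overlap with any other of the genes, with 328 to 546 TPM.

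Ion transporters and channels of other kinds were mixed. Of 12 such genes, 9 were tested, 3 above 0 and 6 below, with a median log2 fold change of -0.24. Kcnk5, a potassium channel that recycles potassium beside the pump in epithelia, was the only one with an unadjusted p under 0.05 (39.0 to 51.9 CPM in vehicle and 28.2 to 36.6 in tamoxifen, log2 fold change -0.46 ± 0.18, unadjusted p = 0.0309 by edgeR). Slc12a7, a potassium-chloride cotransporter, had a log2 fold change of 0.11 ± 0.26, and Car4, a membrane carbonic anhydrase, one of -0.56 ± 0.64. Scnn1g, a subunit of the epithelial sodium channel, was at 0 in every library.

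The genes of the tight junction seal all lay below 0, 10 of 10, with a median log2 fold change of -0.26. An unadjusted p under 0.05 was found for Cldn6 alone (95.6 to 194 CPM in vehicle and 55.0 to 133 in tamoxifen, log2 fold change -0.75 ± 0.31, unadjusted p = 0.0358 by edgeR), and its groups overlapped. The most abundant per length were Cldn4 and Cldn7, claudins of the trophectoderm, and F11r, a junctional adhesion molecule, with log2 fold changes of -0.32 ± 0.17, -0.18 ± 0.18 and -0.20 ± 0.16. Groups without overlap were found for Tjp1 and Ocln, named after their values were seen, at 49.6 to 54.8 against 29.3 to 47.5 CPM and at 96.2 to 107 against 58.0 to 94.9 CPM. These genes share the direction of the trophectoderm markers, whose part in their difference was not tested.

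**Figure D4:**
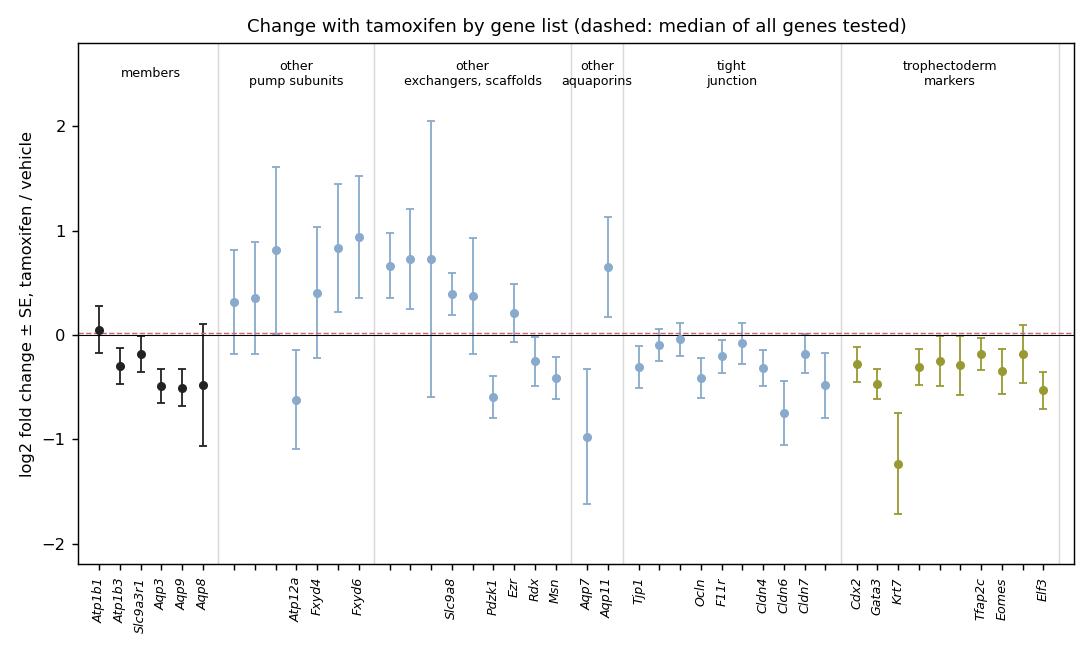
Log2 fold change (tamoxifen over vehicle) with SE, from edgeR over 7 libraries, of the 6 tested genes (black), related genes (blue) and trophectoderm markers (olive), with the median of all genes tested as a dashed line and names under the genes described in the text. All 10 tight junction genes and all 10 trophectoderm markers lie below 0, while 6 of 7 other pump subunits lie above it, and no gene passed the adjusted threshold.

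The genes whose log2 CPM followed that of each member most closely over the 7 libraries were sought among 8050 genes with a mean of at least 10 CPM. For Aqp3 they were Vps37b (Pearson r = 0.977), Myh10 (0.976) and Ugp2 (0.973), and for Aqp9 2 of the 3 were Psma4 (0.993) and Elf3 (0.966). Elf3 is on the trophectoderm list. For Atp1b1 they were Gskip (0.933), Rasa2 (0.930) and Mplkip (0.924), and for Atp1b3 Psmd6 (0.993), Eif3m (0.990) and Nob1 (0.981). For Slc9a3r1 they were Dnmt3a (0.963), Cd3eap (0.961) and Gcsh (0.958), and for Aqp8 Brat1 (0.984), Arntl (0.984) and Ldah (0.973). No gene was shared between these lists. With 7 libraries and so many genes searched, values this high are a ranking and carry no test.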

How the data were processed

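The submitters deposited raw counts per Ensembl gene for 7 libraries, not normalised. Per the submitters' processing notes, STAR 2.5.3a, bcl2fastq 2.19.1 and the build mm10 were used; the counting program, annotation, strand setting and handling of duplicates are not given in the sources used here. The libraries were made with a low-input amplification kit, so counts are not independent molecules and counting limits cover counting error only. Of 52636 genes, 52489 matched GENCODE M21 (GRCm38), which gave symbols, coordinates and transcript lengths. No pair of libraries agreed within sampling noise (chi-square over degrees of freedom at least 23.9).

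The test of the deposited counts was the one of edgeR 4.0.16 (R 4.3.3; TMM factors, filter on low counts by group, quasi-likelihood test, condition as the only term), with p-values adjusted by the Benjamini-Hochberg method over 16248 genes and called under 0.05. Library totals limit a count of 0 to 0.0709 to 0.131 CPM (3 counts). Log2 CPM used a prior count of 2. TPM divides counts by the typical transcript length. Exact permutation tests are two-sided over 35 assignments of libraries; nothing says that each pool came from separate matings, so p-values measure the spread between these pools. Alternatives were DESeq2 1.42.0, other scaling and filters, clone or replicate blocks, subsets by clone and leaving out each library.

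The members and gene lists were chosen with earlier results of these data known. Named are the members; per pathway list the genes with a p under 0.05 and the 3 with the highest level per length; Cdx2, Gata3 and Eomes; and the 3 genes most like each member. Some genes that these rules would name are not reported here and were left out of the lists.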

Additional observations from a re-analysis of the deposited data

Results flagged for a closer look

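In groups of 4, a library was marked where its gap to the nearest other as a share of the group's range exceeded Dixon's critical value. Of 22 groups examined, 2 were marked, and chance marks about 1 in 20. Atp1b3 in tamoxifen clone8_2 was at 137 CPM (0.893 of the range), above 114 to 117 in the other 3, and the log2 fold change was -0.36 without this library but -0.13 without vehicle clone8_1. Aqp8 in tamoxifen clone8_1 was at 2.53 CPM (0.908 of the range), below 9.35 to 10.0 in the other 3.

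Fxyd4 had an interaction of clone and condition of 3.61 on the log2 scale (adjusted p = 0.0254 by edgeR). It rests on vehicle clone8_1, the only clone 8 vehicle library, whose spread is assumed to be that of the other groups, so it does not separate a clone from a library. Vehicle clone8_1 had 2.97 CPM of this 628-nt transcript and was low in short transcripts as a whole. Without it the log2 fold change of Fxyd4 was -0.13, and 510 of the 514 genes called for this interaction went the same way.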

How the results depend on the processing

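Of 396 log2 fold changes under alternatives for 22 named genes, 380 kept their sign and 16 did not; 0 became called. Atp1b1 was -0.13 with the replicate block and -0.22 in clone 4 alone, and -0.14 to 0.21 with each library left out. Leaving out each library gave -0.94 to 0.12 for Aqp8, -0.13 to 1.29 for Fxyd4, -0.057 to 0.37 for Ezr, -1.41 to 0.16 for Aqp7, -0.10 to 0.29 for Slc12a7 and -1.08 to 0.12 for Car4. Fxyd6 kept its sign, at 0.59 to 1.99, and was 0.26 without both clone8_1 libraries. Car4 was 0.064 with the replicate block. In clone 4 alone Fxyd4 was -0.21. Without both clone8_1 libraries Fxyd4 was -0.23 and Rdx 0.067. Relative to the trophectoderm markers, Atp1b3 was 0.12, Slc9a3r1 0.22 and Aqp8 0.071. Where these signs turned, the cause was not tested.

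Genes called over all libraries were 0 by edgeR (970 at an unadjusted p under 0.05), 4 by DESeq2 and 2 without both clone8_1 libraries. For clone 4 alone they were 0 (1264 unadjusted), 140 by DESeq2, 217 with no filter, 2 with a mean count of at least 50, and 0 to 309 with a library left out, 250 and 309 without vehicle clone4_1 or clone4_2. The interaction of clone and condition had 514, 1023 by DESeq2, 991 with no filter and 52 to 695 with a library left out: 267 without vehicle clone4_1, 107 and 52 without tamoxifen clone4_1 or clone4_2.

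Members with an unadjusted p under 0.05 were 2, and 1 to 2 with a library left out. With the replicate block there was 1 (Aqp9), and the genes called stayed at 0. Same-numbered libraries had correlations of deviations of 0.0078, 0.021 and -0.068, and not every library correlated best with its own number. The main test therefore did not treat the numbers as pairs. The labels do not say what the numbers mark, and correlations over so few libraries cannot decide whether they pair the libraries. Library depth limits Slc9a3, at or below 3 counts everywhere, and the 7 pools limit every test.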
